A study of Mus musculus with 10 samples.

Results

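The subject is how CD4 cells from the spleen differed between the mouse strains NOD and B10 in the unstimulated state. The comparison takes the unstimulated arrays by their titles, 3 from NOD and 3 from B10, which are 6 of the 10 arrays of the series. It covers every probe set with exactly 1 gene symbol, with the probe set of the highest mean standing for a gene measured more than once, which gives 19938 genes. The values are log2 intensities, so a difference of 1 is a 2-fold difference. NOD samples carry the genotype label NODk and B10 samples the label B10Br. All mice were female and 8 weeks old. Splenocytes of both strains were sorted with CD4 beads on an AutoMACS, a column sorter that keeps cells bound to magnetic beads, so other cells that stay on the column are carried along. The unstimulated state is labelled T0 and basal, although the protocol text can also be read as culture of these cells for 4 hours without drugs. The other 4 arrays, 2 of each strain, are of cells given phorbol 12-myristate 13-acetate at 10 ng/ml and ionomycin at 1 uM for 4 hours (T1). They serve here to show whether a T0 difference was also seen after stimulation. They also enter the shared estimate of each gene's spread, and so the T0 standard errors and calls, and the choice of probe set. The labels call the samples biological replicates and name no animal, so p-values measure the spread between these samples, part of which may be technical.

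NOD mice develop autoimmune diabetes spontaneously, a disease that needs CD4 T cells, while B10 mice do not. What the label NODk adds to the strain name is not given in the labels, so whether this background holds for these mice is not known here. The 2 strains differ at many places in the genome, so a difference in RNA can come from alleles of the gene itself, from regulators elsewhere, or from a different mix of cells. The spleen of the mouse also makes red cells, and its macrophages clear old ones, so a spleen preparation can hold nucleated red cell precursors and red pulp macrophages next to lymphocytes.

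At an adjusted p under 0.05 in limma, 1155 of 19938 genes (5.79%) differed between the strains at T0. Of these, 686 were higher in NOD (3.44% of all genes) and 469 were lower (2.35%). A difference of at least 2-fold was seen for 206 of the higher and 67 of the lower genes. The median difference over all genes was -0.0147, and Pearson's r over all probe sets was 0.990 to 0.993 within a strain and 0.978 to 0.984 between strains at T0. The number of calls depended on single arrays: it was 642 without B10 replicate 1, 642 without B10 replicate 2, 599 without NOD replicate 1 and 571 without NOD replicate 3. In each of the 10 omissions, 275 of the higher and 212 of the lower genes kept their call.

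**Figure D1:**
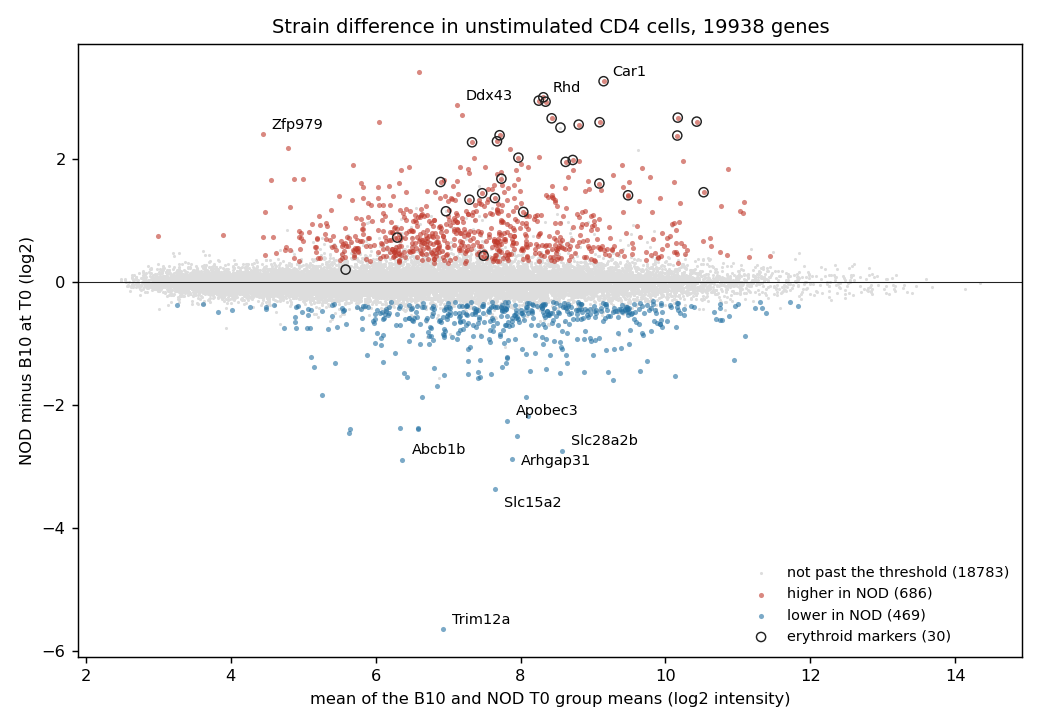
Mean T0 level of each gene (x axis, log2 intensity) against its NOD minus B10 difference (y axis, log2), with genes past the threshold in red (686 higher in NOD) or blue (469 lower) and erythroid markers circled. Most of the largest positive differences are circled, and Trim12a stands alone at -5.65.

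T cell RNA was present in the preparations of both strains, with list means slightly lower in NOD. The mean over 12 CD4 T cell markers was 10.34, 10.36 and 10.37 on the B10 arrays and 10.24, 10.29 and 10.16 on the NOD arrays, so each NOD array lay below each B10 array. The median difference was -0.15, and 10 of the 12 differences were negative. Cd4 read 11, 11.21 and 11.06 on the B10 arrays and 10.98, 10.99 and 10.89 on the NOD arrays. Cd3e, a chain of the T cell receptor complex, read 10.39, 10.49 and 10.39 in B10 and 10.37, 10.49 and 10.34 in NOD. Of 12 CD4 T cell markers, 0 were higher and 1 was lower in NOD. That gene, the T cell surface protein Thy1, was 0.44 lower (adjusted p = 0.0223), and its call ended in 5 of the 10 omissions. B cell RNA was present in both strains, with Cd79a, the B cell receptor signalling chain, at 8.91 to 9.22 in B10 and 9.27 to 9.43 in NOD. Of 17 measured B cell markers, 1 was higher (Cr2, complement receptor 2, 1.00) and 1 was lower (Ly6d, -1.46). The share called was 8.33% of the CD4 T cell markers and 11.8% of the B cell markers, against 5.79% of all genes.

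Red cell genes gave the largest group of differences. Of 30 measured erythroid markers, 27 were higher in NOD and 0 were lower, so 90% were called against 5.79% of all genes. The median difference of these markers was 2.0 against -0.015 for all genes. Their mean level was 7.19, 6.48 and 8.22 on the B10 arrays and 9.30, 8.89 and 9.56 on the NOD arrays. Each NOD array lay above each B10 array, and the B10 arrays were spread over a wider range than the NOD arrays. The markers not past the threshold were Cldn13 (difference 2.51, adjusted p = 0.0637), Gata1, the master regulator of red cell development (1.15, adjusted p = 0.117), and Tfr2 (0.20). In samples of bulk RNA, more cells of a type and more RNA per cell cannot be told apart.

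**Figure D2:**
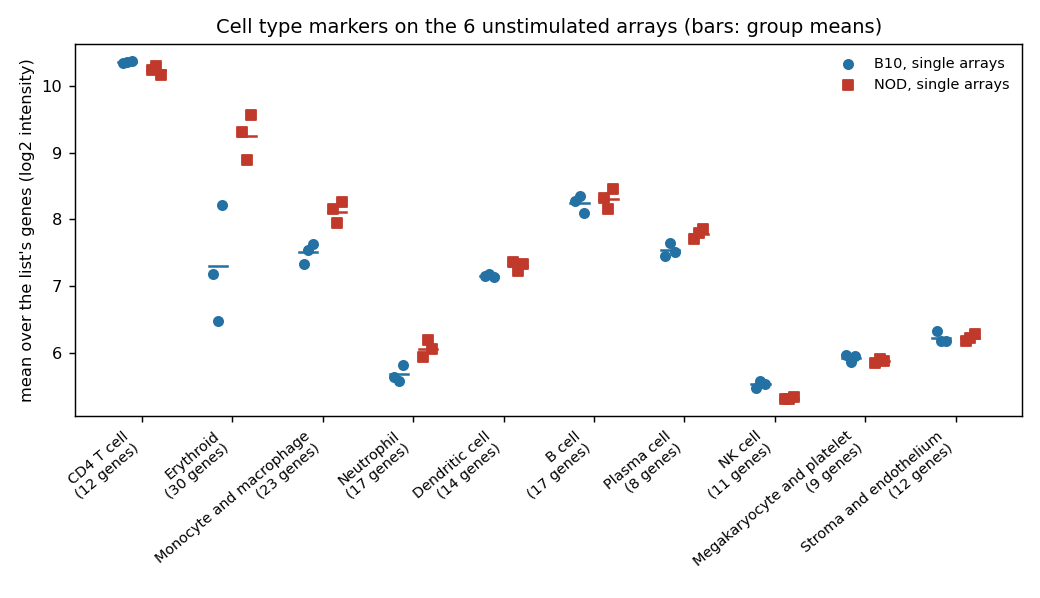
Mean log2 intensity over each list of cell type markers (y axis) on the single B10 arrays (blue circles) and NOD arrays (red squares) at T0, with bars for the group means. Erythroid means run from 6.48 to 8.22 in B10 and from 8.89 to 9.56 in NOD, macrophage means also separate the strains, and CD4 T cell means run from 10.34 to 10.37 in B10 and from 10.16 to 10.29 in NOD.

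Membrane proteins of the red cell were prominent among them. Rhd, a Rh blood group protein, read 6.81, 5.45 and 8.18 in B10 and 9.87, 9.26 and 10.32 in NOD. Its difference was 3.01 ± 0.60 (SE, n = 3 arrays a strain), an 8.03-fold higher level in NOD (adjusted p = 0.0104). Slc4a1, the anion exchanger band 3, read 8.74, 7.30 and 10.46 in B10 and 11.46, 11.27 and 11.80 in NOD (difference 2.68, adjusted p = 0.0446). In both genes the B10 array of replicate 3 was the highest of its strain and came nearest to NOD. Rhag (2.95), the membrane skeleton gene Epb42 (2.93), the water channel Aqp1 (2.60), the Kell antigen Kel (2.39) and the actin capping protein Tmod1 (2.29) were also higher. The other probe set of Tmod1 gave a difference of only 0.054, so the probe sets of this gene disagree.

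Enzymes and other proteins of red cell precursors were among the called markers. Alas2, which starts heme synthesis in red cell precursors, read 8.62, 8.09 and 10.21 in B10 and 11.31, 11.21 and 11.54 in NOD, a difference of 2.38 ± 0.47 (adjusted p = 0.00972). Car1, a carbonic anhydrase, had the largest positive difference among the genes named by rule, with 7.55, 6.64 and 8.35 in B10 and 11.08, 10.26 and 11 in NOD. It was 9.63-fold higher in NOD (difference 3.27 ± 0.41, adjusted p = 0.000566), and its call held in each of the 10 omissions. Car2 (2.61), the nuclear protein Hemgn (2.56) and Trim10, a TRIM protein of late red cell precursors (2.66), were called too. Outside the list, the tetraspanin Tspan8 read 5.66, 4.6 and 7.23 in B10 and 8.54, 8.14 and 8.96 in NOD (2.71, adjusted p = 0.0166). Without B10 replicate 1, NOD replicate 1 or NOD replicate 3, the number of erythroid markers called was 7 of 30, and over all omissions it ran from 7 to 29.

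Promoter windows are shown for a pair of these genes because the members move together and GATA factors bind red cell promoters. Sequences are from RefSeq (GRCm38.p6), cover 160 bases before to 25 after the gene start, and are written 5′ to 3′ on the gene's strand. Capitals mark AGATAA or its reverse complement, with its first base at -86 from the start of Alas2 and -43 from that of Rhd. The pair was picked among genes whose window holds these letters, which the windows of Rhag and Klf1 do not.
Alas2, chrX:150547257-150547441, plus strand: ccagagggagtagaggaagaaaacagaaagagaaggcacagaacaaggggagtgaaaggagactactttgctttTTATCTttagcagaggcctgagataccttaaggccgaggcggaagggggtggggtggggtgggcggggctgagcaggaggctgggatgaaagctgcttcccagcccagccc
Rhd, chr4:134864376-134864560, plus strand: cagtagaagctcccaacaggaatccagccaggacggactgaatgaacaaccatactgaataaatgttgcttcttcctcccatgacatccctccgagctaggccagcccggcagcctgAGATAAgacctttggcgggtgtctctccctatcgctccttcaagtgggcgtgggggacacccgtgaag
In windows of 250 bases before to 50 after the start, AGATAA was found on either strand in 8 of 20 erythroid genes higher in NOD (40%), among them Epb42, Hemgn, Trim10, Kel, Epor and Tal1. It was found in 10.8% of the 15614 tested genes with a window, in 13.4% of all genes higher in NOD and in 11.2% of the 32851 windows of that length. The letters CCACACCC, as KLF1 can bind, were in 0 of the 20 and in 4.37% of tested genes. A match is a description of the letters and not a measured binding site.

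The miRNA genes Mir144 and Mir451a, which red cell precursors express from a shared transcript, were looked up after the values had been seen. The array reports them by gene and not by mature arm. Their mature sequences in RefSeq are shown to give what the genes encode, with the seed (bases 2 to 8) in capitals.
mmu-miR-144-3p: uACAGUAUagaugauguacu
mmu-miR-144-5p: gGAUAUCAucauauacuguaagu
mmu-miR-451a: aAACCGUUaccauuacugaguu
All lie on the plus strand of chromosome 11, and no seed is shared among the 3. Mir144 read 3.58, 2.96 and 4.58 in B10 and 6.08, 5.22 and 6.37 in NOD (difference 2.18, adjusted p = 0.00289), and Mir451a read 4.63, 4.42 and 4.99 against 5.86, 5.11 and 6.28 (1.07, adjusted p = 0.0186). Neither passed at T1, where the differences were 0.32 and 0.26.

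Macrophage genes were higher in NOD as well. Of 23 monocyte and macrophage markers, 14 were higher and 1 was lower, with a median difference of 0.80, and list means were 7.34 to 7.63 in B10 and 7.94 to 8.26 in NOD. Genes of red pulp macrophages were among them. Hmox1, which breaks down heme, read 10.05, 10.09 and 10.30 in B10 and 11.44, 11.11 and 11.60 in NOD (1.23, adjusted p = 0.00194). Vcam1, an adhesion protein of these macrophages, was 1.28 higher and Spic, their lineage transcription factor, 1.09 higher. Mrc1, the mannose receptor, was 1.48 higher, the hemoglobin scavenger receptor Cd163 1.12 higher and the neighbouring complement genes C1qa, C1qb and C1qc 1.05, 0.89 and 0.80 higher. Apoe, a lipid carrier, was the member that was lower, at 10.21, 10.46 and 10.30 in B10 and 9.59, 9.61 and 9.57 in NOD (-0.73, adjusted p = 0.000507). In the whole list 18 differences were positive and 5 negative. Besides Apoe, the negative ones were Cd5l (-0.18), Lyz1 (-0.13), Clec4f (-0.13) and Vsig4 (-0.04), which did not pass. Without B10 replicate 1 or NOD replicate 3, 7 members were higher. Of 17 neutrophil markers, 5 were higher and 0 lower (median 0.25), including the granule protein Ngp (1.14) and the chemokine receptor Cxcr2 (0.80). This count was 3 without any 1 of B10 replicates 1 and 2 and NOD replicates 1, 2 and 3, and 7 at most. Calls made up 65.2% of the macrophage list and 29.4% of the neutrophil list, against 5.79% of all genes.

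Some genes of dividing cells were higher in NOD. Of 48 cell cycle and replication genes, 10 were higher and 0 lower (median 0.60), while the replication genes Mcm4 (-0.01), Mcm6 (-0.00) and Pcna (0.09) did not pass. Mki67, the proliferation marker, read 8.61, 8.11 and 9.51 in B10 and 10.64, 10.11 and 11.03 in NOD (1.85, adjusted p = 0.0371), and the cyclin Ccna2 was 1.39 higher. The array order was that of the red cell genes, with B10 replicate 2 lowest and NOD replicate 3 highest for Mki67. Of 30 histone genes, a set gathered by symbol after the data were seen, 14 were higher and 0 lower (median 0.56). They include 3 runs of neighbouring genes, of which H3c15, H4c14 and H2bc18 (1.54, 0.80 and 1.23) are 1 run. The number of cell cycle genes called ran from 3 to 25 over the omissions, and was 3 without B10 replicate 1 or 2 or NOD replicate 1 or 3. In the fit of all arrays 20.8% of the cell cycle list was called, against 5.79% of all genes.

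Red cell content was followed with the mean of Alas2, Klf1 and Car2 on each array. It was 7.31 to 9.38 on the B10 arrays and 10.1 to 10.7 on the NOD arrays, so it separated the strains at T0 completely. With this mean as a covariate in the fit, 136 genes (0.682%) were called, and within the 6 T0 arrays strain and red cell content cannot be told apart. Strain and this covariate overlap, which can widen the standard error of the strain difference. A call lost with the covariate therefore does not show by itself that the difference became smaller, here or in the other paragraphs. Of the 686 higher genes, 58 were still called (8.45%), and their median difference went from 0.73 to 0.437. Of the 469 lower genes, 70 were still called (14.9%), and their median difference was -0.534 without and -0.514 with the covariate. The covariate's own slope was called for 97 of the higher and 8 of the lower genes. The median of the macrophage list went from 0.80 to 0.483, that of the cell cycle list from 0.60 to 0.059 and that of the histone genes from 0.56 to 0.194. Calls with the covariate were 0 of 23, 1 of 48 and 0 of 30 in these groups. Erythroid markers were not judged this way, as 3 of them form the covariate. The mean of the macrophage markers separates the strains as well, and as a covariate it left 51 calls, 15 higher and 36 lower.

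**Figure D3:**
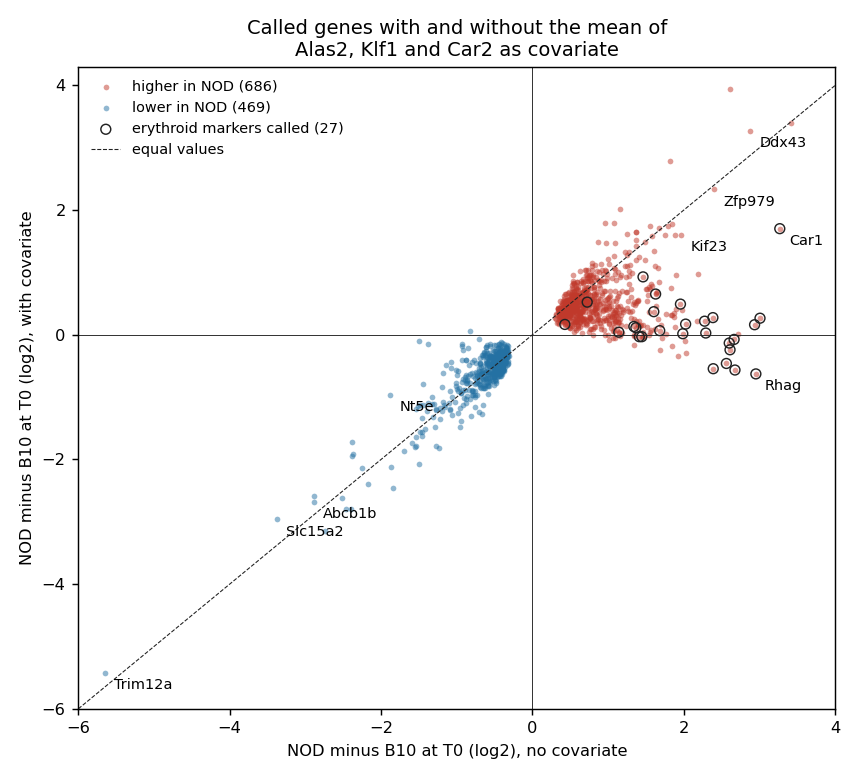
NOD minus B10 difference at T0 for the 1155 called genes without (x axis, log2) and with (y axis, log2) the mean of Alas2, Klf1 and Car2 as a covariate, with erythroid markers circled and a dashed line of equal values. Lower genes lie along the line (median -0.534 and -0.514), while many higher genes lie below it (median 0.73 and 0.437).

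The genes named next were higher in NOD and also called with the red cell covariate, a choice made after the values were seen. This choice asked for strains that do not overlap and for calls in both fits, so it favours tight groups of arrays. Ddx43, a DEAD-box RNA helicase, read 6.03, 5.64 and 5.37 in B10 and 8.90, 8.42 and 8.35 in NOD. It was 7.36-fold higher in NOD (2.88 ± 0.19, adjusted p = 3.31e-06) and its difference was 3.27 with the covariate. Zfp979, a zinc finger gene, read 3.10, 3.14 and 3.47 in B10 and 5.48, 5.64 and 5.79 in NOD (2.40, adjusted p = 7.12e-06), near the bottom of the measured range, where RMA understates folds. Kif23, a mitotic kinesin, read 7.66, 7.82 and 8.01 in B10 and 9.82, 9.72 and 9.85 in NOD, a difference of 1.97 (1.60 with the covariate), unlike the other cell cycle genes named above. H60b, a ligand of the NK receptor NKG2D, was 1.84 higher, and Plaur, the urokinase receptor, was 1.75 higher. Galnt11, a glycosyltransferase, was 1.58 higher, Myo1d, an unconventional myosin, 1.49 higher, and Rcan3, a calcineurin regulator, 1.37 higher. The other probe set of Myo1d gave 0.608. The genes named so far in this paragraph kept their call in each of the 10 omissions, which the choice also favours. BC018473, an unnamed transcript left out by the naming rule, had a larger difference than any named gene that was higher, with 4.80, 4.76 and 5.08 in B10 and 8.39, 8.15 and 8.37 in NOD (3.42, adjusted p = 1.79e-07).

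Genes lower in NOD were led by Trim12a, a relative of the retrovirus restriction factor TRIM5. It read 9.64, 9.96 and 9.65 on the B10 arrays and 4.31, 3.95 and 4.05 on the NOD arrays. The difference of -5.65 ± 0.14 (SE, n = 3 arrays a strain) corresponds to a 50.1-fold lower level (adjusted p = 3.04e-10). The strains did not overlap and differed by far more than the spread within each. The NOD values lie near the bottom of the measured range, where RMA understates folds and no detection call was used. Its neighbours in gene order were lower by less, with Trim34a at -0.60 on one side and Trim12c at -0.64, Trim30a at -0.63 and Trim30d at -1.01 on the other. Trim6, beyond Trim34a, had a difference of 0.10. Trim12a and Trim12c are near-identical copies, so probes may be shared between them, and whether strain variants lie under the probes was not tested. Apobec3, a cytidine deaminase that restricts retroviruses, read 9.12, 8.98 and 8.73 in B10 and 6.78, 6.49 and 6.79 in NOD, 4.79-fold lower (-2.26 ± 0.12, adjusted p = 8.24e-07). Its other probe set gave -1.24. In the list of 16 retrovirus restriction and TRIM genes, 7 were lower and 0 higher (43.8% called against 5.79% of all genes, median -0.34). With the red cell covariate 2 of these 16 were still called. Fv1, which blocks retroviral capsids, had a difference of 0.02.

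The Ifi200 genes, which encode DNA sensors of the PYHIN family, formed another group of neighbours. Of 10 measured, 5 were lower and 1 was higher in NOD (60% called against 5.79% of all genes, median -0.83). In every omission 5 were lower. With the red cell covariate 3 were lower (median -0.469), and with the macrophage covariate 1 was. Ifi206 read 7.45, 8.36 and 7.51 in B10 and 5.44, 5.36 and 5.39 in NOD (-2.38 ± 0.19, adjusted p = 1.37e-05). Ifi213 read 7.38, 7.97 and 7.24 in B10 and 5.40, 5.04 and 5.01 in NOD (-2.38 ± 0.20, adjusted p = 2.42e-05). Ifi214 (-1.56), Ifi209 (-1.46) and Ifi208 (-1.51) complete a run of 5 neighbouring genes, all lower. Further along, Ifi207 (-0.20), Ifi203 (-0.14) and Ifi205 (0.14) did not pass. Ifi202b went the other way, at 3.96, 3.85 and 3.90 in B10 and 4.98, 4.95 and 5.17 in NOD (1.14, adjusted p = 1.66e-05). Aim2, the inflammasome DNA sensor, had a difference of 0.58 (adjusted p = 0.0538). These genes are close copies of each other, so which copy a probe set reports is uncertain.

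Promoter windows of 4 of these genes are shown because interferon-responsive elements are known from such promoters and the genes are lower together. Capitals mark GAAANNGAAA or its reverse complement, the core of the interferon-stimulated response element. Only windows that hold these letters were picked for print. A second window of Apobec3 did not hold them, nor did the windows of Psmb9 and Tap1, which were also lower in NOD.
Trim12a, chr7:104315471-104315655, minus strand: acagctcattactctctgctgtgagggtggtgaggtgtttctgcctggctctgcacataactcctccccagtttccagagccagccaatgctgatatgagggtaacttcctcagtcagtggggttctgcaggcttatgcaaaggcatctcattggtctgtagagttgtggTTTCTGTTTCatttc
Ifi206, chr1:173491294-173491478, minus strand: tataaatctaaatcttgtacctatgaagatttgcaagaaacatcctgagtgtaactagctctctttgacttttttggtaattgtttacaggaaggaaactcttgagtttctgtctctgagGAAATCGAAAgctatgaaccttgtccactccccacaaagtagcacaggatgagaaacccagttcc
Ifi213, chr1:173599248-173599432, minus strand: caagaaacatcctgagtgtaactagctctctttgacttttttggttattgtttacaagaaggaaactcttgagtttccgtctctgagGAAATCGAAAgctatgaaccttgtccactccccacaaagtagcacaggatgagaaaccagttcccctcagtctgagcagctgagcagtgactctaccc
Apobec3, chr15:79892248-79892432, plus strand: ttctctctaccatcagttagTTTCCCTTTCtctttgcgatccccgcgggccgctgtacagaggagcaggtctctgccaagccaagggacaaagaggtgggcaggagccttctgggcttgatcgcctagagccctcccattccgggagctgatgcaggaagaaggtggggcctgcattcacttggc
The motif's first base is at -40 from the start of Ifi206, -73 from that of Ifi213, -140 from that of Apobec3 and 11 in Trim12a. Lined up on the motif, the Ifi206 and Ifi213 windows are identical at 174 of the 177 bases before it (98.3%). In windows of 250 bases before to 50 after the start, the motif was in 14 of 21 members of the interferon, Ifi200, TRIM and MHC lists that were lower in NOD (66.7%). It was in 17 of 48 members that were not lower (35.4%), in 10.1% of all genes lower in NOD, in 3.9% of all genes higher in NOD, in 3.89% of tested genes and in 3.44% of all windows.

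Type I interferon-stimulated genes went both ways. Of 31, 4 were lower and 2 higher in NOD (19.4% called, median -0.32), while 27 of the differences were negative. Eif2ak2, the kinase PKR, read 6.45, 6.93 and 6.36 in B10 and 5.59, 5.37 and 5.72 in NOD (-1.02, adjusted p = 0.0272). Ifih1, an RNA sensor and diabetes candidate gene, was 0.93 lower (adjusted p = 0.0154), and Rtp4 and Zbp1 were lower by 0.99 and 0.61. Rsad2, the antiviral enzyme viperin, read 7.26, 7.45 and 8.70 in B10 and 9.46, 9.18 and 9.89 in NOD (1.71, adjusted p = 0.0321), but its difference was -0.06 with the red cell covariate. Mx1 (-0.07) and Ifit1 (-0.00) did not pass. Without B10 replicate 2 or NOD replicate 2, 0 members were lower, and without B10 replicate 1, NOD replicate 1 or NOD replicate 3, 0 were higher. With the red cell covariate 0 of 31 were called. B10 replicate 2 had the highest B10 level for Ifih1, Rtp4, Zbp1 and Eif2ak2.

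**Figure D4:**
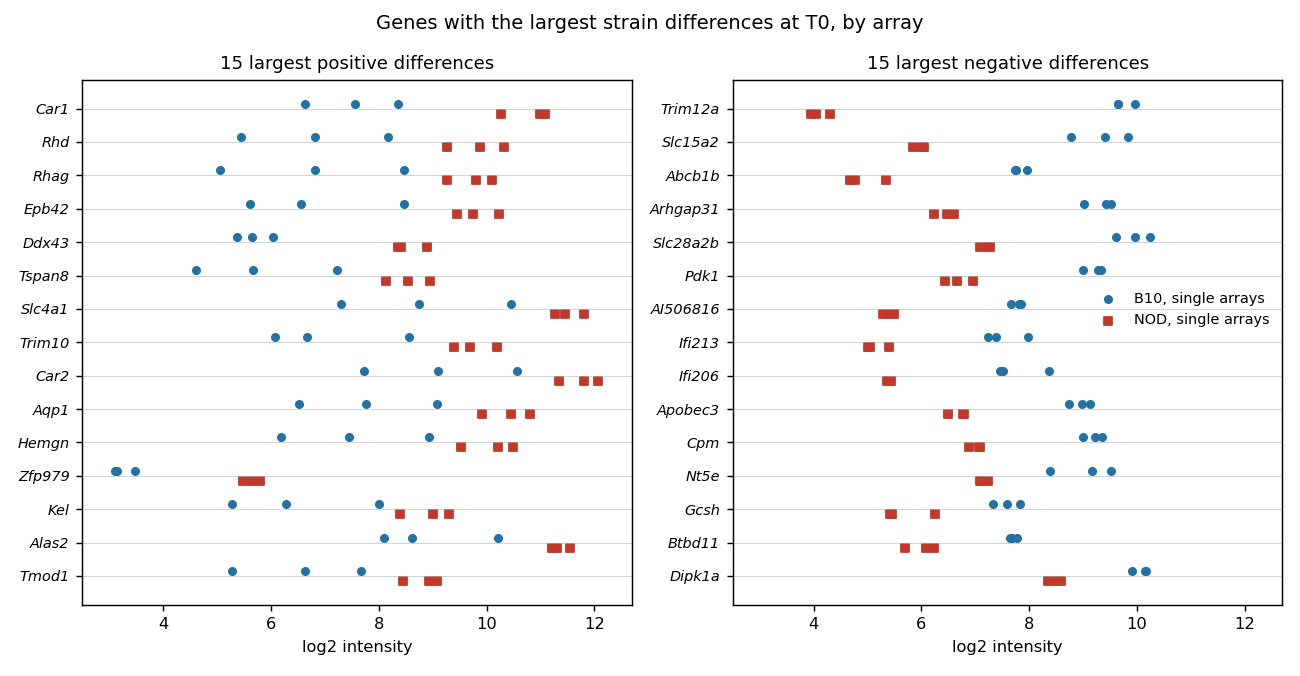
Log2 intensity (x axis) of the 15 genes with the largest positive (left) and the 15 with the largest negative difference (right) among those the naming rule admits, on the single B10 arrays (blue circles) and NOD arrays (red squares) at T0. On the left the B10 arrays of the red cell genes are spread widely (Car1 6.64 to 8.35), and on the right the spread differs by gene, from Trim12a (9.64 to 9.96 in B10, 3.95 to 4.31 in NOD) to Nt5e (8.39 to 9.52 in B10).

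Several transporters and metabolic enzymes were among the 15 named lower genes. Slc15a2, a peptide transporter, read 8.77, 9.83 and 9.41 in B10 and 6.01, 5.84 and 6.04 in NOD, 10.4-fold lower (-3.37 ± 0.21, adjusted p = 2.53e-06). Abcb1b, a P-glycoprotein efflux pump, read 7.76, 7.96 and 7.73 in B10 and 5.34, 4.76 and 4.68 in NOD, 7.41-fold lower (-2.89 ± 0.15, adjusted p = 7.70e-07). Its neighbours Abcb1a (-0.69), Rundc3b (-1.42) and Slc25a40 (-0.58) were lower too, whereas Abcb4 on the other side was 1.39 higher. Abcb1a and Abcb1b are close copies, and Abcb4 had a difference of 0.16 with the red cell covariate. Slc28a2b, of the nucleoside transporter family, read 9.96, 9.61 and 10.24 in B10 and 7.08, 7.22 and 7.28 in NOD (-2.75, 6.71-fold lower). Pdk1, a kinase that switches off pyruvate dehydrogenase, read 8.99, 9.27 and 9.34 in B10 and 6.95, 6.67 and 6.44 in NOD (-2.51, 5.71-fold lower). Gcsh, of the glycine cleavage system, was lower too (-1.87). Respiratory chain genes gave 0 of 33 calls in limma and heat shock genes 0 of 20, with medians of 0.06 and 0.056.

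The remaining named lower genes include proteins of the cell surface and of signalling. Nt5e, the ectonucleotidase CD73, read 9.16, 9.52 and 8.39 in B10 and 7.12, 7.08 and 7.23 in NOD (-1.88 ± 0.24, adjusted p = 0.000696). It was the 1 gene of the 15 named lower genes not called with the red cell covariate, where its difference was -0.97. Cpm, carboxypeptidase M, read 8.99, 9.23 and 9.36 in B10 and 7.09, 7.07 and 6.89 in NOD (-2.18, adjusted p = 8.24e-07). Arhgap31, a GTPase-activating protein, read 9.52, 9.43 and 9.01 in B10 and 6.24, 6.61 and 6.47 in NOD, 7.38-fold lower (-2.88, adjusted p = 3.70e-07). Dipk1a (-1.60), Btbd11 (-1.69) and the uncharacterised AI506816 (-2.39) were also lower. Absence of overlap between arrays is part of the naming rule. The 15 named lower genes kept their calls in each of the 10 omissions, against 3 of the 15 named higher genes (Car1, Ddx43 and Zfp979). Of those 15 higher genes, 12 are in the erythroid list. Among all called genes the counts were closer, with 212 of 469 lower and 275 of 686 higher genes keeping their call in each omission.

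Genes of the regulatory list and of the memory and effector T cell list that passed the test were mostly lower in NOD. Of 25 regulatory T cell genes, 7 were lower and 0 higher (median -0.23), while the lineage factor Foxp3 itself read 7.67, 7.79 and 7.45 in B10 and 7.44, 7.70 and 7.69 in NOD (-0.02, adjusted p = 0.971). Members lower in NOD were Nt5e, Capg (-1.45), the opioid precursor Penk (-1.50), the costimulatory receptor Tnfrsf9 (-0.93), the folate receptor family member Izumo1r (-0.85), Lrrc32, which presents latent TGF-beta (-0.80), and Klrg1 (-0.60). Without B10 replicate 2, 3 of them were lower, and with the red cell covariate 0 were and the list's median turned to 0.154. B10 replicate 3, the B10 array with the highest erythroid mean, was the lowest B10 array for 6 of the 7 (all but Klrg1), and the part of red cell content in these values was not tested. Of 37 memory and effector genes, 7 were lower and 2 higher. Calls made up 28% of the regulatory list and 24.3% of the memory and effector list, against 5.79% of all genes. Ccl5, a chemokine of effector cells, read 10.31, 10.75 and 10.06 in B10 and 9.05, 8.73 and 9.01 in NOD (-1.44, adjusted p = 0.000807). The granule membrane gene Nkg7 (-1.15), the IL-2 receptor chain Il2rb (-0.93) and the Th1 factor Tbx21 (-0.75) were lower, and Anxa1 was 1.17 higher. With the red cell covariate 0 of these 37 genes were called, and their median went from -0.228 to 0.156. Of 2 CD8 T cell markers, Cd8b1 was lower (-0.49, adjusted p = 0.0306) and Cd8a did not pass (-0.18). Their mean was 7.13 to 7.36 on the B10 arrays and 6.85 to 6.98 on the NOD arrays. With the red cell covariate 0 of the 2 were called. The part of CD8 cells carried along in the effector gene values was not tested. Of 25 naive and resting T cell genes, 2 were lower, Actn1 (-1.28) and Dapl1 (-0.78), and 0 were higher, a share of 8% called against 5.79% of all genes.

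Some natural killer receptor genes were lower in the NOD preparations. Of 32 NK receptor complex and cytotoxic genes, 11 were lower, 1 was higher and 20 did not pass (median -0.10), with 4 lower and 1 higher called under the red cell covariate. Klrb1c, the NK1.1 antigen, read 5.79, 5.62 and 5.75 in B10 and 4.58, 4.52 and 4.37 in NOD (-1.23, adjusted p = 1.15e-05). Klrc2 (-1.31), Klrd1 (-0.94) and the protease Ctsw (-0.90) were lower, and Klra17 was the member that was higher (1.61). Klra and Klrb1 genes are families of close copies that vary between strains, so probe matches may differ. Zbtb16, the factor PLZF of innate-like T cells, was looked up after its values were seen and read 8.90, 8.31 and 8.17 in B10 and 7.14, 7.15 and 7.11 in NOD (-1.32, adjusted p = 0.000325). Of 11 NK cell markers, 2 were lower, Klrb1c and Klrd1. Without B10 replicate 2 or NOD replicate 3, 7 of the 32 genes were lower. With all arrays, 37.5% of the 32 genes and 18.2% of the NK cell markers were called, against 5.79% of all genes.

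Cytokine genes differed in a few members. Il4, the Th2 cytokine, read 10.02, 10.01 and 9.96 in B10 and 8.99, 8.66 and 9.31 in NOD (-1.01, adjusted p = 0.00688). Il2, the T cell growth factor and a diabetes candidate gene, was 0.54 higher (adjusted p = 0.0135), and Tnf was 0.54 lower (adjusted p = 0.00487). Ifng, the Th1 cytokine, had a difference of -0.57 (adjusted p = 0.224). In all, 3 of 48 cytokine and receptor genes were higher and 4 were lower, with 1 higher and 2 lower without B10 replicate 1 and 2 lower without B10 replicate 2. Of 46 chemokine, chemokine receptor and adhesion genes, 4 were higher and 5 lower, including the XCR1 ligand Xcl1 (-0.69) and the integrin chain Itgal (-0.65), and 2 were higher without B10 replicate 1 or 2 or NOD replicate 1 or 3. Under the red cell covariate, 2 of the 48 cytokine and receptor genes were higher and 0 lower, so Il4 and Tnf were not called. In that fit 0 of the 46 chemokine and adhesion genes were called. Without the covariate 14.6% of the cytokine and receptor list and 19.6% of the chemokine and adhesion list were called, against 5.79% of all genes.

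Genes of the costimulatory receptor list and of the proximal T cell receptor signalling list differed by less than 2-fold. Of 37 costimulatory, inhibitory and SLAM family receptors, 8 were lower and 5 higher. The activating receptor Cd226 read 8.22, 8.01 and 8.22 in B10 and 7.28, 7.26 and 7.29 in NOD (-0.87, adjusted p = 0.0028). Btla (-0.52), Slamf1 (-0.60) and Cd101 (-0.87) were lower, while Havcr1, the receptor TIM-1, was 0.81 higher. The count of lower genes was 4 without NOD replicate 1, and that of higher genes was 1 without B10 replicate 1. Of 39 genes of proximal T cell receptor signalling, 2 (5.13%, near the 5.79% over all genes) were lower, the adaptor Lcp2 (-0.46) and the phosphatase Ptpn22, a diabetes candidate gene (-0.60). Of 30 diabetes candidate genes in all, 5 were lower and 3 higher, and Ctla4 had a difference of -0.46 (adjusted p = 0.457). Without B10 replicate 1 or 2, 2 of them were lower. Of 51 immediate-early and activation genes, 8 were lower and 1 (Myc, 0.41) was higher. The ERK phosphatase Dusp4 was 1.08 lower, and without NOD replicate 1, 3 of the 51 were lower. With the red cell covariate 0 genes of these receptor, signalling and immediate-early lists were called. The median of the receptor list went from -0.23 to 0.022, that of the immediate-early list from -0.142 to -0.029, and that of the signalling list was -0.144 without and -0.163 with the covariate. Without it, 35.1% of the receptor, 26.7% of the diabetes candidate and 17.6% of the immediate-early list were called, against 5.79% of all genes.

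Part of the genes of antigen processing and lymphocyte survival were lower in NOD by small amounts. Of 33 MHC and antigen processing genes, 9 were lower and 0 higher (median -0.11). Psmb8, an immunoproteasome subunit, read 10.30, 10.26 and 10.20 in B10 and 9.65, 9.56 and 9.70 in NOD (-0.62, adjusted p = 0.000834). Its neighbours Psmb9 (-0.52), Tap1 (-0.57) and Tap2 (-0.47), the other subunit and the peptide transporter, form a run of 4 lower genes. H2-Ea, which encodes a class II chain absent from standard NOD mice, read 11.63, 11.71 and 11.45 in B10 and 11.95, 11.97 and 12.01 in NOD (0.38, adjusted p = 0.0982). The class II genes H2-Aa (0.27), H2-Ab1 (0.36) and Cd74 (0.31) did not pass and had positive differences. Of 8 GIMAP GTPases, which support lymphocyte survival, 5 were lower and 0 higher (median -0.36). Gimap7 read 8.67, 8.95 and 8.82 in B10 and 7.75, 7.78 and 7.90 in NOD (-1.0, adjusted p = 0.000376), and Gimap1, Gimap5 and Gimap3 next to it were lower by 0.38, 0.55 and 0.62. Without B10 replicate 2, 4 of the MHC genes were lower, and without NOD replicate 1, 2 of the GIMAP genes were. With the red cell covariate 0 of either list were called, at medians of -0.02 and -0.34. Without it, 27.3% of the MHC list and 62.5% of the GIMAP list were called, against 5.79% of all genes.

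Called genes lay next to each other more often than tested genes in general. Of the lower genes, 26.7% had another lower gene within 2 places in gene order, against 8.51% of all placed genes, and the shares for higher genes were 23.2% and 12.6%. This is a description with no test, since gene families share probes and sequences. In total, 13 runs of 3 or more neighbours with the same call held 47 genes, 8 runs lower and 5 higher.

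The stimulated arrays may share their source with the T0 arrays, so they are not independent support. Same-numbered T0 and T1 arrays deviated from their group means together in B10 (r = 0.413 and 0.404 over genes for replicates 2 and 3), and the values in NOD were -0.0145 and 0.219. At T1, 718 genes (3.6%) differed between strains. Of the 1155 genes called at T0, 356 (30.8%) were called at T1 in the same direction, 200 of the higher and 156 of the lower genes, which is 49.6% of the T1 calls. Of the 15 named lower genes 12 were called again, and of the 15 named higher genes 4 were (Car1, Rhd, Ddx43 and Zfp979). Trim12a read 7.78 and 7.73 in B10 and 4.06 and 3.59 in NOD at T1. Car1 read 7.05 and 7.76 in B10 and 9.07 and 10.34 in NOD. Erythroid markers also had higher means on the NOD arrays at T1, 9.17 and 9.60 against 6.80 and 8.33 in B10.

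Few genes passed limma's test of whether the strain difference changed with stimulation, the interaction. The interaction passed for 49 genes (0.246%), of which 26 were called at T0. Arhgap31 differed by -2.88 at T0 and by -0.48 at T1. Ifi202b was 1.14 higher in NOD at T0 and 1.14 lower at T1, where both groups were far above their T0 levels. Il4 was 1.01 lower in NOD at T0 and had a difference of -2.89 at T1. The interaction had a larger standard error than the T0 difference (0.2174 against 0.1375 for Trim12a). A gene that did not pass is therefore not shown to have kept its difference. Ddx43, for example, differed by 2.88 at T0 and by 1.49 at T1, and its interaction did not pass in limma (adjusted p = 0.101).

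**Figure D5:**
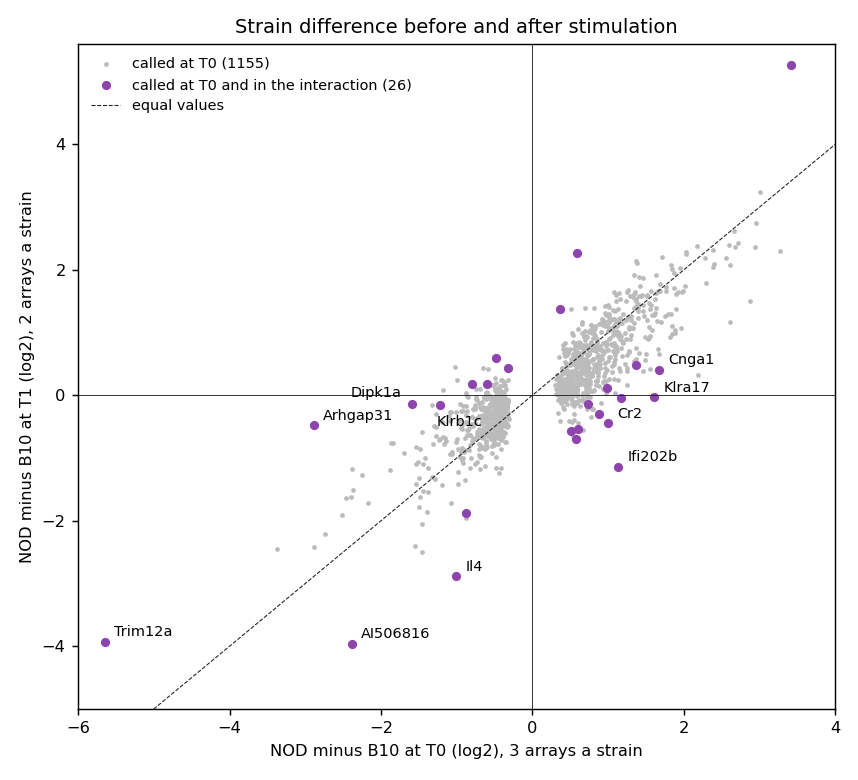
NOD minus B10 difference at T0 (x axis, log2, 3 arrays a strain) against that at T1 (y axis, log2, 2 arrays a strain) for the 1155 genes called at T0, with the 26 that also passed the interaction in purple and a dashed line of equal values. Arhgap31 (-2.88 and -0.48) and Ifi202b (1.14 and -1.14) lie far from the line, and Trim12a (-5.65 and -3.93) is low in NOD in both states.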

How the data were processed

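Each sample of sorted cells was run on 1 Affymetrix array for mouse genes. The deposited values are log2 intensities that the authors made with RMA in Affymetrix Power Tools, per the submitters' processing notes; versions and genome build are not given in the sources used here, and base 2 is taken from the spread of values. RMA subtracts background, brings all arrays to 1 distribution and summarises probes, which compresses folds near background; detection calls were not used here. Array medians were 6.18 to 6.23, and the small number of arrays limits the precision. Of 35486 probe sets, 21789 have 1 symbol in the platform table, 1621 have several and 12076 have no listed gene; the last 2 kinds were left out. In 999 of 19938 genes several probe sets exist, and the one with the highest mean over all arrays was kept.

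All 10 arrays entered 1 limma fit with 4 group means (limma 3.58.1 in R 4.3.3, eBayes, two-sided, 6 residual degrees of freedom). The Benjamini-Hochberg adjustment ran over every gene, separately for 3 contrasts, with 0.05 as the threshold, and the procedure was tested on simulated data. Named genes are the 15 largest positive and 15 largest negative differences past the threshold with no overlap between single T0 arrays. Left out were predicted or unnamed genes with symbols of the forms Gm, LOC, BC, AK or Rik, chemosensory receptors, small RNAs and antigen receptor segments. The uncharacterised AI506816 has none of these forms and was kept. Members of the 22 gene lists and 12 marker lists and runs of 3 or more neighbours may be named too. The comparison, the members and the lists were chosen with earlier results of these data known, so no list is independent evidence. Alternatives were other scaling, other choices of probe set, brighter genes, trend and robust settings, array weights, a minimum of 1.2-fold, cell content covariates, replicate blocks and omission of each array; 2 covariate fits were added after the data were seen. Gene order and sequences are from RefSeq (GRCm38.p6), where 19855 genes could be placed. Figures were drawn with matplotlib 3.10.9.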

Additional observations from a re-analysis of the deposited data

Results flagged for a closer look

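Among the genes named above and the members of the lists, 13 had a strain difference at T1 that differed from that at T0 in limma's test of the interaction. Each value is the T1 difference minus the T0 difference on the log2 scale (n = 3 arrays a strain at T0, n = 2 at T1). Differences that were smaller after stimulation were those of Arhgap31 (2.41, adjusted p = 0.000649), Trim12a (1.72, adjusted p = 0.00755), Dipk1a (1.46, adjusted p = 0.00755), the NK receptor Klrb1c (1.08, adjusted p = 0.0132) and the SLAM receptor Slamf1 (0.77, adjusted p = 0.0429), which were all lower in NOD at T0. The same holds for genes higher in NOD at T0, namely Klra17 (-1.64, adjusted p = 0.0177), Cnga1, a cyclic nucleotide-gated channel (-1.26, adjusted p = 0.0138), Anxa1 (-1.22, adjusted p = 0.0329) and Rcan3 (-0.89, adjusted p = 0.0466). The Trim12a mean went from 9.75 at T0 to 7.75 at T1 in B10. In NOD it was near the bottom of the measured range in both states (4.10 and 3.82). At T1, Cnga1 (3.62 in B10, 4.03 in NOD) and Klra17 (4.46 and 4.43) were low in both strains.

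Values of Cr2 went from 1.00 higher in NOD at T0 to -0.44 at T1, a change of -1.44 (adjusted p = 0.0466). Ifi202b changed by -2.28 (adjusted p = 3.36e-05), from higher to lower in NOD. The difference of Il4 grew by -1.88 (adjusted p = 0.0216) and that of AI506816 by -1.58 (adjusted p = 0.0168). B cell and macrophage marker means were lower at T1 than at T0 in both strains (B cell list 8.10 to 8.45 at T0 and 7.0 to 7.26 at T1), and their part in these values was not tested.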

How the results depend on the processing

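The count of 1155 calls (686 higher, 469 lower) was within 1.5 times under other scaling, other probe set choices, brighter genes only, the T0 arrays only, trend and robust settings and the B cell covariate. Array weights gave 2316 (1362 higher, 954 lower), and a tested minimum of 1.2-fold gave 283 (169 and 114). Covariates gave 136 (64 and 72) with the 3 red cell genes, 127 (57 and 70) with all erythroid markers and 51 (15 and 36) with the macrophage markers. Of those added after the data were seen, the 6 T0 arrays with the 3 red cell genes gave 83 (32 and 51), and red cell and macrophage covariates together gave 86 (30 and 56). Leaving out each array in turn gave 571 to 1306 calls, 315 to 774 higher and 252 to 532 lower. With only the 4 T1 arrays, 94 in place of 356 T0 calls were called again. The difference of Tspan8 was -0.0862 with the erythroid marker covariate and -0.0465 with the T0 arrays and the red cell covariate. That of Rsad2 was -0.0565, -0.150, -0.0227 and -0.605 with the red cell, erythroid marker, macrophage and joint covariates. Deviations of same-numbered T0 arrays of the strains from their group means had r of -0.219, 0.034 and 0.0496. Differently numbered T0 arrays of the strains had r from -0.247 to 0.256. These values do not settle whether same-numbered arrays were handled together, which the labels do not say. A fixed replicate block gave 1212 calls and a random replicate block 862. Probe sets near background limit what can be said of low genes.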

Other observations

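Some transporter, ribosome and survival genes outside the main groups were called. The share called was 33.3% in the transporter list, 10% in the ribosome list and 16.2% in the survival list, against 5.79% of all genes. Of 30 ABC transporter and xenobiotic genes, 6 were higher and 4 lower in NOD, and without B10 replicate 1 or NOD replicate 1, 3 were higher. The glutathione transferase Gstm5 read 4.57, 4.62 and 5.00 in B10 and 7.28, 5.73 and 6.89 in NOD (1.90, adjusted p = 0.00557), and its difference was 0.96 with the red cell covariate. The nucleotide exporter Abcc4 was 0.55 lower and the sterol exporter Abcg1 0.43 lower. Of 30 ribosome biogenesis genes, Pes1 was 0.64 higher, and Wdr12 and Polr1b were lower by 0.64 and 0.34. The median of this list was -0.013, against -0.015 for all genes. Of 37 apoptosis and survival genes, 2 were higher, Bcl2l1 (0.63) and Bcl2l11 (0.39), and 4 were lower, Fasl (-0.53), Tnfrsf10b (-0.51), Tnfrsf1a (-0.47) and Casp8 (-0.42). Without NOD replicate 3, 0 of them were higher and 1 was lower. Under the red cell covariate, 0 genes of the ribosome and survival lists were called, and in the transporter list 0 were higher and 1 was lower.

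Plasma cell genes Jchain (0.98) and Mzb1 (0.96) were higher in NOD, 2 of 8 such markers, and 0 were without B10 replicate 1 or 3 or NOD replicate 1 or 3. Dendritic cell markers gave 2 of 14 higher (Kmo 0.50, Tcf4 0.36) and 0 without any 1 of the B10 arrays, NOD replicate 1 or NOD replicate 3, and stromal and endothelial markers gave 0 of 12 calls in limma. With all arrays, 25% of the plasma cell and 14.3% of the dendritic cell markers were called, against 5.79% of all genes. In 69 called genes other probe sets of the gene exist, and in 59 of these all others had the same sign.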
